A study of Homo sapiens with 12 samples.

Results

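The mRNA levels of 10 genes that restrain or carry the signal to mTORC1 were followed in hESCs with and without UBQLN1: DDIT4, DDIT4L, SESN1, SESN2, SESN3, TSC1, TSC2, RHEB, DEPTOR and AKT1S1. They are 10 of the 28278 genes in the count table and 10 of the 15916 genes with enough counts to be tested, so every member passed the filter on low counts. The genes were listed by name, and DDIT4 was chosen by its measured counts in these libraries, which were high at 5% O2 and unequal between the NAC libraries. Its values in the comparisons with those groups are therefore a description without a test.

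All cells were WA26, an established human embryonic stem cell line, grown on Matrigel in a defined medium. The 4 groups analysed had 2 libraries each: wild type (WT) hESCs at 20% O2 without treatment, UBQLN1 knockout (KO) hESCs at 20% O2 without treatment, KO hESCs at 5% O2, and KO hESCs treated with N-acetyl-L-cysteine (NAC), an antioxidant. The KO was made with Cas9 and a pair of guide RNAs, and the sources do not say which clone gave which library. Of the 12 samples in the labels, the 4 of WT cells given NAC or low oxygen were not analysed here. A response that depends on UBQLN1 therefore cannot be told apart from one that does not. The study calls the libraries of its oxygen comparison biological replicates, but the labels do not say whether the libraries of a group came from separate cultures, so p-values measure the spread between libraries, which may be technical. In the study the negative control of the NAC treatment received DMSO, whereas the labels of the untreated cells give no vehicle. The sources differ on how long the cells were kept at 5% O2, and the study's scheme gives NAC over several passages. Length of treatment may thus differ between groups and cannot be told apart from the treatment itself.

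mTORC1 is a protein kinase complex on the lysosome that drives protein synthesis and cell growth when nutrients, growth factors, energy and oxygen suffice. The TSC complex, built from the products of TSC1 and TSC2, switches off the GTPase RHEB, which directly activates the kinase. DDIT4 (REDD1) is a stress protein, classically induced by low oxygen, that works through the TSC complex, and DDIT4L (REDD2) is its paralog. Sestrins act on the amino acid branch through GATOR2. SESN2 is the leucine sensor best known as a target of ATF4 and of p53, SESN1 is a p53 target, and SESN3 is controlled by FOXO factors. DEPTOR and AKT1S1 (PRAS40) bind the kinase complex itself and inhibit it.

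The regions upstream of DDIT4, its paralog DDIT4L and SESN2 are shown because DDIT4 had the widest range of mRNA of the 10 genes, and the others are stress brakes with a narrower range. They are the 250 bases before the RefSeq start of each gene on GRCh38.p14, 5′ to 3′ on the strand of the gene, at chr10:72273674-72273923 (plus strand), chr4:100190469-100190718 (minus strand) and chr1:28259268-28259517 (plus strand). Capitals mark the letters ACGTG or GCGTG, the core of the hypoxia response element, searched on both strands.
DDIT4: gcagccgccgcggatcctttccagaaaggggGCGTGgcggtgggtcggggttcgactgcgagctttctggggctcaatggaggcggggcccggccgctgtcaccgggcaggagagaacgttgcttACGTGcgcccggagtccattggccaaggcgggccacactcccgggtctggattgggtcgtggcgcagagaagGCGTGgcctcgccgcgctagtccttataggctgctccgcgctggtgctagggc
DDIT4L: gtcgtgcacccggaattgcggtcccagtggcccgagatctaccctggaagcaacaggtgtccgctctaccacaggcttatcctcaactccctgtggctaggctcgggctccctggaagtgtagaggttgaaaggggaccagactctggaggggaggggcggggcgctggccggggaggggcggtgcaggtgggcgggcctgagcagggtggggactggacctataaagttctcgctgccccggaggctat
SESN2: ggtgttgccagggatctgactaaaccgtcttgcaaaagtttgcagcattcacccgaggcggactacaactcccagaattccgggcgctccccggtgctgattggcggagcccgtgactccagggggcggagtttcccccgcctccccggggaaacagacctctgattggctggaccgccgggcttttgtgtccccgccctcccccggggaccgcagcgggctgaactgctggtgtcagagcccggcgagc
The DDIT4 window held 1 ACGTG, starting at -125, and 2 GCGTG, starting at -219 and -53, counted from the start of the gene. At least 3 cores were found in 7.76% of the 35116 RefSeq windows of this length, and at least 1 in 43.2%. Windows of 8 members were searched, and AKT1S1 and DEPTOR were not. The windows of DDIT4L, SESN2, SESN3 and TSC1 held neither form. RHEB held 1 ACGTG on the minus strand at -81, and 1 of the 3 SESN1 windows held 1 GCGTG at -82. In 1 of the 2 TSC2 windows, the palindrome CACGTG gave an ACGTG on each strand, at -114 and -113, and overlapped the only match among the members to the ATF4 core TGATGNAA, at -110. The ATF4 core stood in 3.1% of all windows. These matches are letters in a window and do not show binding.

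Library totals ran from 31236968 to 41639350 counts. UBQLN1 was at 221 and 197 CPM (counts scaled to library size by the TMM method) in the WT libraries and at 42.2 to 62.4 CPM in the 6 KO libraries, with a log2 fold change of -2.29 in KO at 20% O2 (SE 0.12, adjusted p = 2.52e-06, edgeR's quasi-likelihood test). All 10 pluripotency markers were detected in every library, and their summed level was 6451 to 7784 CPM. The first NAC library stood apart. Of 12 fibroblast and mesenchymal markers none was at 0 in it, against 2 to 4 at 0 in each of the other libraries, and their sum was 985 CPM against 550 to 652 CPM. In that library DCN was at 47.2 CPM, COL3A1 at 29.1 CPM and LUM at 3.86 CPM, while in the other 7 libraries DCN and LUM were at 0 and COL3A1 was at 0 to 0.21 CPM. The members' results with NAC are therefore given with and without the first NAC library. Whether this marker RNA came from other cells was not tested, nor was its part in the members' results. Summed early neuroectoderm markers also differed between the groups. The sums were 678 and 669 CPM in KO at 20% O2 and 459 and 420 CPM in WT. They were 405 and 485 CPM in KO at 5% O2 and 255 and 281 CPM with NAC. The sums were mostly NES and ZIC1, and 2 of the 7 markers were under 1 CPM in every library. NES was at 451 and 422 CPM in KO at 20% O2 and at 266 and 226 CPM in WT. In bulk libraries, fewer cells of a type and less RNA per cell cannot be told apart.

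Per kilobase of transcript, RHEB had the highest mean level over the 8 libraries (61.1 CPM per kb), followed by DDIT4 (46.3 CPM per kb) and AKT1S1 (43.3 CPM per kb). SESN2 was at 12.7 and TSC2 at 10.2 CPM per kb. SESN1, SESN3, DDIT4L and TSC1 lay between 3.94 and 4.85 CPM per kb, and DEPTOR was lowest at 0.968 CPM per kb. The range of DDIT4, 8.71 to 108 CPM per kb, overlapped those of RHEB, AKT1S1, SESN2 and TSC2. SESN1, SESN3, DDIT4L and TSC1 overlapped one another in their ranges over the libraries. The SD of log2 CPM over the 8 libraries was 1.64 for DDIT4, rank 92 of 15916 genes, and the other 9 members ranked from 2708 to 12329. Of 31-base words in the RHEB transcript, 52.3% also stood on other chromosomes, so its counts are uncertain. For the other members this share was at most 0.91%, and no member had more than 0.02% of its words on alternate-locus scaffolds. TSC2 shares 12.2% of its exon bases with other genes, PKD1 on the opposite strand among its neighbours, DEPTOR 9.6% and SESN1 4.3%. Counting without strand cannot part such reads.

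**Figure D1:**
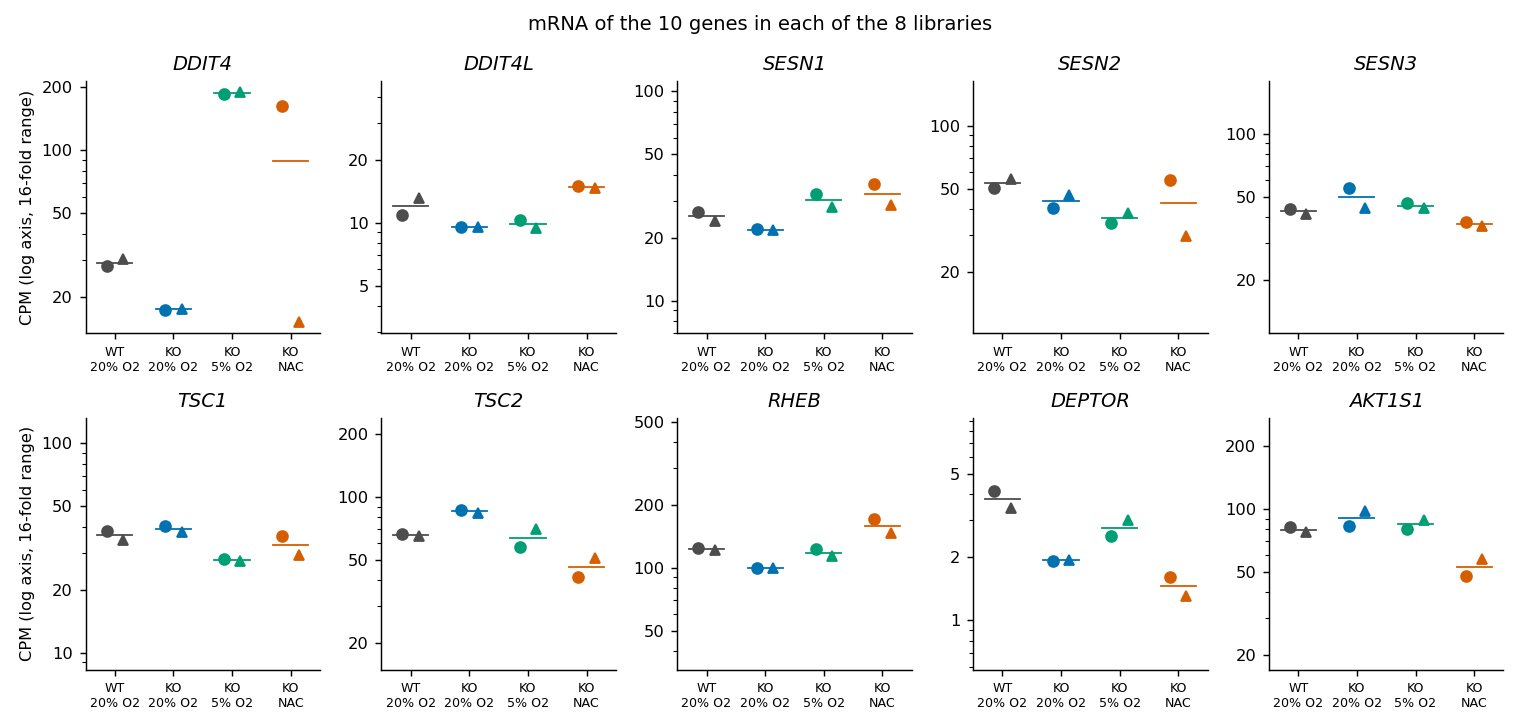
CPM on a log axis of the 10 genes in each library, with circles for library 1, triangles for library 2 and lines for the mean of each group; every panel spans the same fold range. DDIT4 sits at 186 and 189 CPM at 5% O2 and at 163 and 15.2 CPM with NAC, while no other gene moves as far.

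DDIT4 was the brake with the largest difference between culture conditions. This gene lies at chr10:72273919-72276036 on the plus strand of hg38, and its transcript has a GC content of 58.0%. It was at 27.9 and 30.2 CPM in WT cells and at 17.3 and 17.4 CPM in KO cells at 20% O2, at 186 and 189 CPM in KO cells at 5% O2, and at 163 and 15.2 CPM in KO cells with NAC. Both libraries at 5% O2 were above all others, and the NAC libraries fell on either side of the untreated groups. The underlying counts were 639 and 718 in KO at 20% O2, 7601 and 6074 at 5% O2, and 6235 and 455 with NAC, so counting error is small beside these differences. At 5% O2 the group mean was 10.8 times that of KO at 20% O2 (log2 fold change 3.43). The first NAC library was at 9.36 times the untreated KO mean and the second at 0.875 times, which are 10.7-fold apart. The log2 fold change with NAC, 2.36, was -0.20 without the first NAC library and 3.23 without the second. Against 5% O2, it was -1.07 with both NAC libraries -3.63 without the first and -0.21 without the second.

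The unequal NAC libraries set DDIT4 apart from the other members. On the log2 CPM scale, DDIT4 was 3.42 higher in the first NAC library than in the second, and 58 of the other tested genes differed by at least as much. In the 3 other groups its libraries differed by at most 0.11. SESN2 was the only other member whose NAC libraries differed by more than 0.34, with 0.88 between 55.3 and 29.9 CPM, and 1682 genes differed by at least as much as it did. For the remaining 8 members the difference ran from -0.31 to 0.34, and both libraries of each other group differed by at most 0.31.

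**Figure D2:**
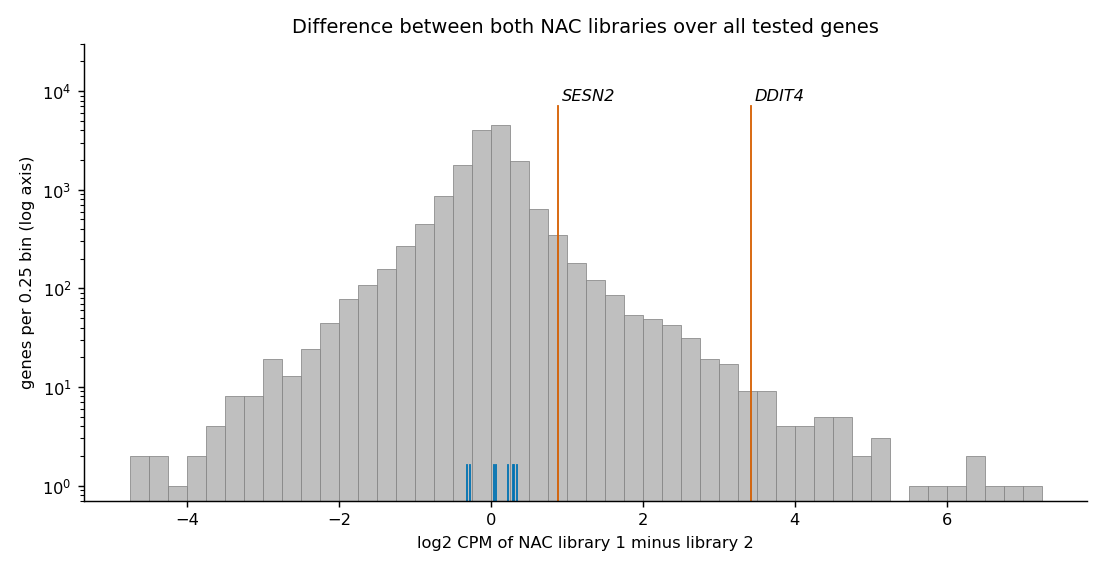
Histogram of the log2 CPM difference between the first and the second NAC library over the tested genes, with a log axis for the number of genes. Orange lines mark DDIT4 at 3.42 and SESN2 at 0.88, and short blue marks show the other 8 members between -0.31 and 0.34.

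Targets of hypoxia-inducible factors (HIF), which drive genes of glycolysis, angiogenesis and oxygen sensing, were set beside DDIT4 in each library. DDIT4 was not in this list of 30 genes. In KO cells at 5% O2, 21 of the 30 genes were higher than at 20% O2, against 3.68% of all genes. None was lower (also none at an unadjusted p under 0.05 or by DESeq2), against 4.13% of all genes. The median log2 fold change was 1.47 against 0 over all genes. PDK1, which inhibits pyruvate dehydrogenase, was at 103 and 91.8 CPM at 5% O2 and at 12.3 and 11.5 CPM at 20% O2 (log2 fold change 3.04). BNIP3, a mitophagy receptor, was at 446 and 405 CPM against 68.9 and 78.3 CPM (log2 fold change 2.53). With NAC against untreated KO cells, 15 of the 30 were higher and 2 were lower, where 23.8% of all genes were higher and 20.8% were lower. Between NAC and 5% O2, none was higher with NAC and 19 were lower, against 15.5% and 13.6% of all genes. Relative to the mean of KO at 20% O2, the list's median was 1.50 and 1.48 (log2) in the libraries at 5% O2, 0.67 in the first NAC library and 0.10 in the second, while DDIT4 was at 3.42, 3.44, 3.22 and -0.19. Thus DDIT4 in the first NAC library was near its level at 5% O2, and the HIF list lay between its levels at 20% and 5% O2. In that library 27 of the 30 genes were higher than in the second, with a median difference of 0.42, and 50.5% of all tested genes were higher. LOX, which cross-links collagen, differed most of the list, by 2.22. LOX is also made by fibroblasts, whose markers were high in the same library, and their part in this difference was not tested. In the second NAC library, genes of the list ran from -1.55 (NDRG1) to 1.01 (FAM162A) relative to the mean of KO at 20% O2. WT cells had DDIT4 0.68 and 0.79 above KO cells at 20% O2, while the median of the HIF list was at 0.01 and 0.08.

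**Figure D3:**
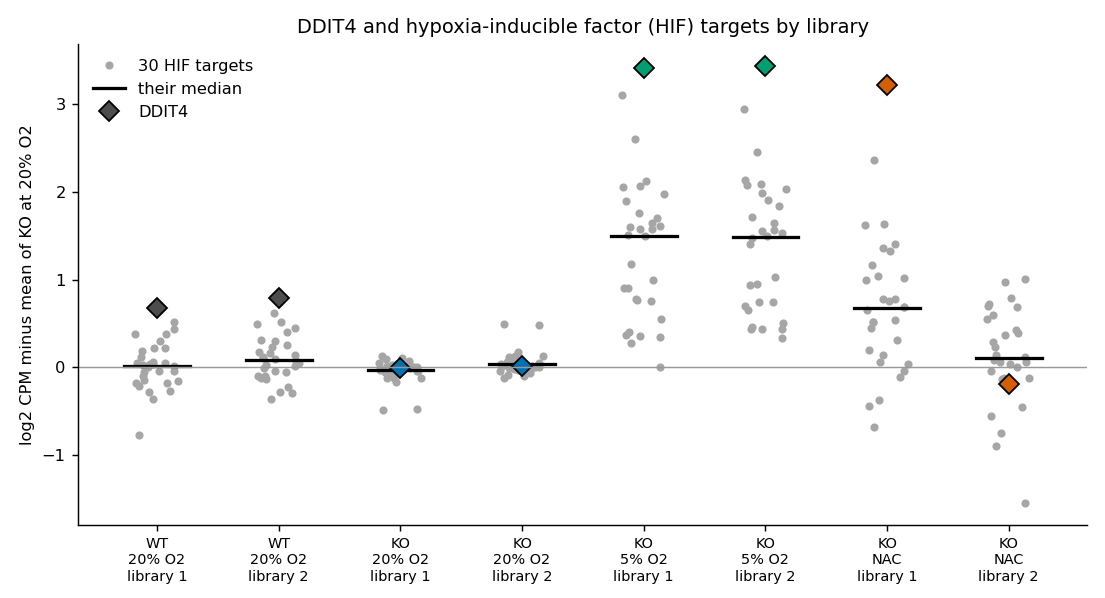
Log2 CPM minus the mean of KO at 20% O2 in each library, with grey points for 30 HIF targets, black lines for their median and diamonds for DDIT4. In the first NAC library DDIT4 is at 3.22 and the median of the list at 0.67, and in the second they are at -0.19 and 0.10.

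The genes whose log2 CPM followed DDIT4 most closely over the 8 libraries, among 3344 genes with an SD of at least 0.5, were DLGAP4.AS1, UPK1A.AS1, STC1, PKM and GBE1, with Pearson's r from 0.942 to 0.979. The libraries fall into few groups, so these values describe the data and carry no test. PKM, a glycolytic pyruvate kinase, was at 1741 and 1708 CPM at 5% O2, 1546 and 949 CPM with NAC, and 722 and 758 CPM in KO at 20% O2. STC1, a secreted glycoprotein, was at 38.6 and 36.8, 24.0 and 12.0, and 9.92 and 9.55 CPM in the same order. GBE1, the glycogen branching enzyme, was at 20.4 and 21.5, 17.0 and 10.5, and 7.64 and 7.02 CPM. Both antisense genes stayed under 1 CPM. At 5% O2, DLGAP4.AS1 was at 0.785 and 0.717 CPM and UPK1A.AS1 at 0.810 and 0.966 CPM. They passed the filter on low counts only through libraries in which DDIT4 was high, so their high r was in part fixed by that filter. With only the 6 KO libraries, 1 of the 5 genes stayed among the first 5. Of the members, SESN1 had the highest r with DDIT4 (0.75) and TSC1 the lowest (-0.56).

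Compared with WT hESCs, no member passed an adjusted p under 0.05 in KO hESCs at 20% O2, where 1.34% of the 15916 genes were higher and 0.622% were lower. DESeq2 called 1 member, RHEB, among 832 genes called in all. By unadjusted p under 0.05 in edgeR, 3 of the 10 members differed. These were DEPTOR (log2 fold change -0.96, SE 0.28, adjusted p = 0.101), RHEB (-0.31, SE 0.10, adjusted p = 0.120) and TSC2 (0.38, SE 0.12, adjusted p = 0.131). DEPTOR was at 4.14 and 3.42 CPM in WT and at 1.92 and 1.94 CPM in KO, on 71 to 138 counts a library. TSC2 was at 66.4 and 64.8 CPM in WT and at 86.4 and 84.2 CPM in KO. RHEB was at 125 and 122 CPM in WT and at 99.7 and 99.4 CPM in KO. The WT and KO libraries of these genes did not overlap. Groups did not overlap for 9 of the 10 members and for 54.7% of all tested genes.

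DDIT4 was lower in both KO libraries than in both WT libraries, with a log2 fold change of -0.74. Its SE of 0.68 and adjusted p of 0.612 rest on a spread shared with the unequal NAC libraries. In a fit of only the 4 libraries compared, the fold change was the same and the adjusted p was 0.00238. Without the first NAC library the adjusted p was 0.000207, and without the second it was 0.000166. In the fit of 4 libraries, 3 of the 9 members other than DDIT4 passed, against 7.24% of 15520 genes. They were TSC2 (adjusted p = 0.0216), RHEB (0.0294) and DEPTOR (0.0448). The KO libraries at 20% O2 also stand in the contrasts for which DDIT4 was picked, and these fits drop the uneven NAC spread it was picked for. The small p-values of DDIT4 are therefore biased towards a difference and only describe it. The sestrins and AKT1S1 had log2 fold changes from -0.29 to 0.23, with adjusted p from 0.331 to 0.510. DDIT4L was at -0.33 (95% interval -0.66 to 0.00) and TSC1 at 0.11. When each library was corrected for a smooth trend on the length and GC content of transcripts, again no member passed (2 at an unadjusted p under 0.05), against 1.20% of all genes.

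At 5% O2, the log2 fold changes of the members other than DDIT4 ran from -0.50 to 0.52, against 3.43 for DDIT4. Of the 9 members other than DDIT4, TSC1 was lower than in KO at 20% O2 and none was higher (2 at an unadjusted p under 0.05, and 1 by DESeq2), where 3.68% of all tested genes were higher and 4.13% were lower. TSC1, the scaffold of the TSC complex, was at 28.0 and 27.3 CPM at 5% O2 and at 40.3 and 37.8 CPM at 20% O2. The groups did not overlap, and the log2 fold change was -0.50 (SE 0.12, adjusted p = 0.0300). The call was lost when any of the 4 libraries compared was left out (log2 fold change -0.54 to -0.45, adjusted p = 0.130 to 0.255), and when the length and GC trend was removed, where the log2 fold change was -0.25 (adjusted p = 0.275) and 2.16% of all genes were called. TSC2, the GTPase-activating partner, was at 57.9 and 69.9 CPM against 86.4 and 84.2 CPM (log2 fold change -0.42, SE 0.12, adjusted p = 0.0569), and at -0.05 with the trend removed.

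SESN1 was at 32.4 and 28.0 CPM at 5% O2 and at 22.1 and 21.6 CPM at 20% O2 (log2 fold change 0.47, SE 0.14, adjusted p = 0.0562). Removing the trend left it at 0.45. SESN2 was at 34.4 and 38.2 CPM against 40.4 and 46.8 CPM, with a log2 fold change of -0.27 (95% interval -0.73 to 0.20). SESN3 was at -0.13 (-0.38 to 0.11) and DDIT4L, the paralog of DDIT4, at 0.04 (-0.29 to 0.37). DEPTOR and RHEB were at 0.52 and 0.25, and AKT1S1 at -0.10. Of these, the libraries of DDIT4L, SESN3 and AKT1S1 overlapped between the groups. For 7 of the 10 members they did not, and for 60.9% of all genes. In a fit of only the 4 libraries compared, 4 of the 9 members passed, against 19.6% of 15384 genes, namely TSC1 (adjusted p = 0.00368), SESN1 (0.00879), TSC2 (0.0108) and RHEB (0.0410).

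**Figure D4:**
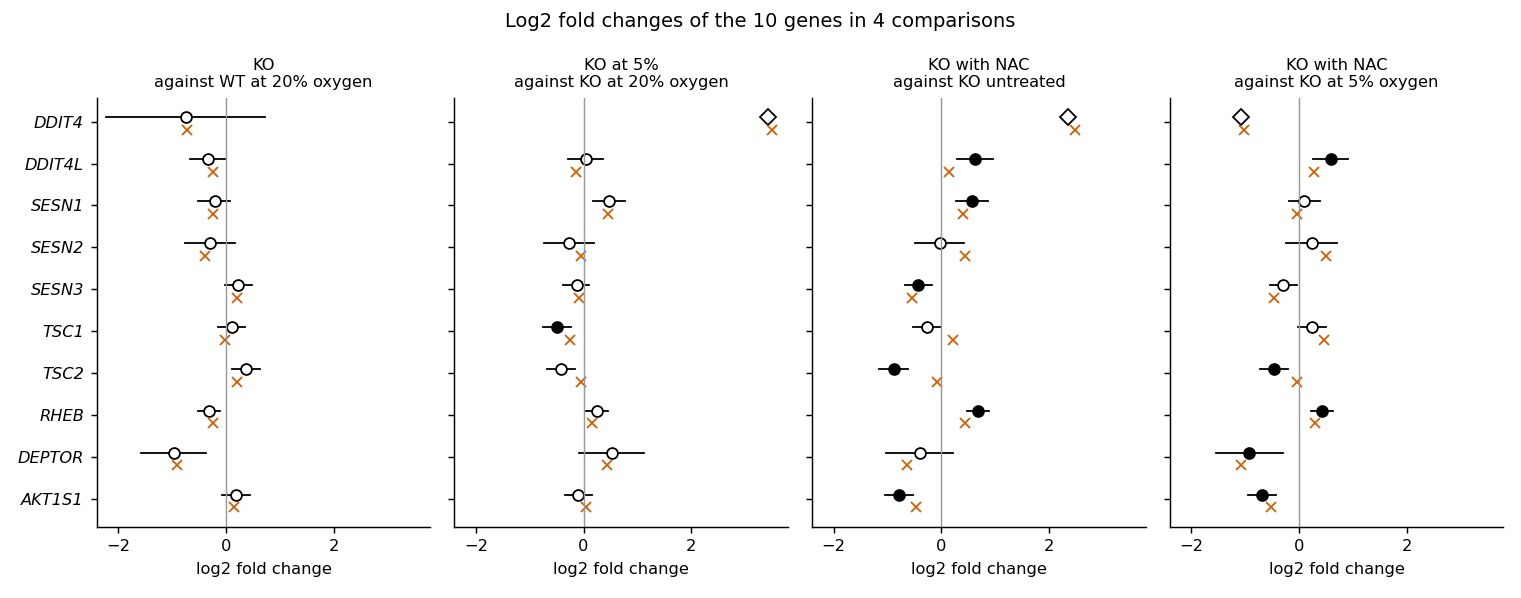
Log2 fold changes of the 10 genes in 4 comparisons, with 95% intervals as bars, filled circles for an adjusted p under 0.05 and open circles for the rest. Diamonds show DDIT4 where it was not tested, and orange crosses show the value after the length and GC trend was removed. With NAC against untreated, TSC2 moves from -0.88 to -0.08 and AKT1S1 from -0.78 to -0.46.

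With NAC, members moved in both directions against untreated KO cells. Of the 9 members other than DDIT4, DDIT4L, SESN1 and RHEB were higher, while SESN3, TSC2 and AKT1S1 were lower. Over all tested genes, 23.8% were higher and 20.8% were lower, so many genes changed beside them. Of 6 tested early neuroectoderm markers, 3 were lower with NAC, with a median log2 fold change of -0.99, and their part in the members' differences was not tested. RHEB, the activator of mTORC1, was at 171 and 147 CPM with NAC and at 99.7 and 99.4 CPM without (log2 fold change 0.68, SE 0.10, adjusted p = 0.000157). AKT1S1, which lies at chr19:49869033-49878459 and has the highest GC content of the members (64.1%), was at 47.7 and 57.8 CPM against 83.2 and 97.9 CPM (-0.78, SE 0.12, adjusted p = 0.000248). TSC2 was at 41.3 and 51.3 CPM against 86.4 and 84.2 CPM (-0.88, SE 0.12, adjusted p = 0.000142). In each of these genes the groups did not overlap, as in 8 of the 10 members and 70.2% of all genes.

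DDIT4L was at 15.0 and 14.7 CPM with NAC and at 9.59 and 9.55 CPM without (log2 fold change 0.63, SE 0.15, adjusted p = 0.00494). Unlike those of DDIT4, its NAC libraries were close to each other. SESN1 was at 36.2 and 28.6 CPM against 22.1 and 21.6 CPM (0.57, SE 0.14, adjusted p = 0.00480), and SESN3 at 38.0 and 36.1 CPM against 55.2 and 44.4 CPM (-0.43, SE 0.11, adjusted p = 0.00990). The value of SESN3 rests in part on the first untreated KO library, without which it was -0.26 (adjusted p = 0.157). SESN2 was at 55.3 and 29.9 CPM, which lie above and below the untreated libraries at 40.4 and 46.8 CPM, and its log2 fold change was -0.03 (95% interval -0.49 to 0.43). It was -0.55 without the first NAC library (adjusted p = 0.00458) and 0.34 without the second (adjusted p = 0.0368), so the direction of SESN2 depends on the library. TSC1 was at -0.26 (-0.52 to 0.00) and DEPTOR at -0.40 (-1.02 to 0.22).

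Part of these differences followed the length and GC content of the transcripts. Whether this trend came from library preparation or from the cells was not tested, and its removal takes out both. With the length and GC trend removed, 25.3% of all genes were called, and 4 of the 9 members. SESN1 and RHEB remained higher at 0.41 and 0.45 (adjusted p = 0.0287 and 0.00238), and SESN3 and AKT1S1 remained lower at -0.55 and -0.46 (adjusted p = 0.00216 and 0.00770). DDIT4L was then at 0.15 (adjusted p = 0.489) and TSC2 at -0.08 (adjusted p = 0.588), whose transcripts have a GC content of 41.4% and 60.4%. TSC1 went from -0.26 to 0.22 and SESN2 from -0.03 to 0.45, and neither passed. Without the first NAC library, where the remaining library is assumed to vary like the other groups, 8 of the 9 members passed, against 40.9% of 16422 genes. DDIT4L was then at 0.61 (adjusted p = 0.00966) and TSC2 at -0.74 (0.000278). SESN1 was at 0.38 (adjusted p = 0.0342), RHEB at 0.56 (0.000298), SESN3 at -0.47 (0.0133), TSC1 at -0.41 (0.0154) and AKT1S1 at -0.65 (0.000624). With both the trend removed and the first NAC library left out, a setting chosen after seeing the data, SESN1 was at 0.24 and lost its call. Fewer members passed there than with the trend removed alone, though no fewer of all genes did. RHEB and AKT1S1 were called in all the alternative fits of this comparison. The study's criteria ask for an absolute log2 fold change over 1, here with edgeR's unadjusted p under 0.05. None of the 9 members other than DDIT4 met them.

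NAC and 5% O2 were compared directly in KO cells. DDIT4L and RHEB were higher with NAC than at 5% O2, and TSC2, DEPTOR and AKT1S1 were lower, where 15.5% of all genes were higher and 13.6% were lower. AKT1S1 was at 47.7 and 57.8 CPM with NAC and at 80.6 and 88.5 CPM at 5% O2 (log2 fold change -0.68, SE 0.12, adjusted p = 0.00184). RHEB was at 171 and 147 CPM against 123 and 114 CPM (0.43, SE 0.10, adjusted p = 0.00647). DDIT4L was at 15.0 and 14.7 CPM against 10.3 and 9.41 CPM (0.59, SE 0.15, adjusted p = 0.0130). DEPTOR was at 1.62 and 1.30 CPM against 2.53 and 3.02 CPM (-0.92, SE 0.28, adjusted p = 0.0302), on 39 to 103 counts a library. TSC2 was at -0.46 (SE 0.12, adjusted p = 0.0149). The median log2 fold change was -0.25 over the 10 members in KO against WT, and over the 9 members other than DDIT4 it was -0.10 at 5% O2, -0.26 with NAC and 0.10 between both, while the medians over all tested genes lay between -0.002 and 0.038. The groups of the 5 genes called between NAC and 5% O2 did not overlap, as in 8 of the 10 members and 62.7% of all genes. The sestrins and TSC1 had log2 fold changes from -0.29 to 0.24 and did not pass.

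With the trend removed, 15.4% of all genes and again 5 of the 9 members were called between NAC and 5% O2. RHEB, DEPTOR and AKT1S1 were at 0.30, -1.07 and -0.51, while TSC1 at 0.47 (adjusted p = 0.0186) and SESN3 at -0.46 (adjusted p = 0.00948) passed in place of DDIT4L and TSC2. Without the first NAC library 4 of the 9 members passed, against 26.3% of 16422 genes. DDIT4L was at 0.57 (adjusted p = 0.0241), RHEB at 0.31 (0.0263), DEPTOR at -1.09 (0.0305) and AKT1S1 at -0.55 (0.00473), and TSC2 was at -0.32 (0.0676). Without the second library at 5% O2 fewer members passed, AKT1S1 among them, as did fewer of all genes.

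The wider mTOR pathway was described with 68 other genes in 7 lists. At 5% O2, 2 of the 68 were higher and 8 were lower, where 3.68% of all genes were higher and 4.13% were lower. RRAGA, a Rag GTPase that recruits mTORC1 to the lysosome, was at 94.8 and 85.3 CPM against 60.7 and 60.0 CPM (log2 fold change 0.58, adjusted p = 0.0151). MTOR, the kinase, was at 133 and 141 CPM against 184 and 170 CPM (-0.37, adjusted p = 0.0297), and AKT1, which phosphorylates TSC2 and AKT1S1, was at -0.44 (adjusted p = 0.0145). With the trend removed, 2 of the 68 were higher at 5% O2 and none was lower (4 at an unadjusted p under 0.05), against 2.16% of all genes called in either direction. So few calls say little about the pathway. RRAGA was then at 0.51 and MTOR at -0.05.

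With NAC against untreated KO cells, 23 of the 68 pathway genes were higher and 17 were lower, where 23.8% of all genes were higher and 20.8% were lower, and the median log2 fold change was 0.17 against 0.023 over all genes. With the trend removed, 16 were higher and 11 were lower, and 25.3% of all genes were called. Without the first NAC library, 21 were higher and 18 were lower, and 40.9% of all genes were called. MTOR was at 86.4 and 92.8 CPM with NAC against 184 and 170 CPM (log2 fold change -0.98, adjusted p = 1.84e-05), and at -0.32 with the trend removed (adjusted p = 0.0104). RPTOR, the scaffold of mTORC1, was at 31.4 and 29.8 CPM against 62.0 and 63.2 CPM (-1.03), and at -0.21 with the trend removed (adjusted p = 0.130). Of 13 genes of the Rag GTPases, Ragulator and folliculin, 7 were higher and 2 were lower, such as LAMTOR5 at 76.2 and 62.3 CPM against 32.3 and 33.8 CPM (1.07) and RRAGD at 20.8 and 22.0 CPM against 33.2 and 34.9 CPM (-0.67). LAMTOR5 was at 0.46 and RRAGD at -0.81 with the trend removed. Of 5 amino acid sensors, 3 were higher and 1 was lower, the arginine sensor subunit CASTOR2 (-1.16, and -0.34 with the trend removed). Of 13 mTORC1 substrates and outputs, 2 were higher and 5 were lower, with RPS6 at 0.94, EIF4E at 0.93, ULK1 at -1.18 and LARP1 at -1.09. Removing the trend left RPS6 at 0.27, EIF4E at -0.03, ULK1 at -0.35 and LARP1 at -0.46. Between NAC and 5% O2, 19 of the 68 were higher and 16 were lower, against 15.5% and 13.6% of all genes. After removal of the trend 7 were higher and 7 lower, against 15.4% of all genes called, and without the first NAC library 11 were higher and 17 lower, against 26.3%.

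The lists of factors known to control the stress brakes were described in the same way. At 5% O2, none of 20 p53 targets passed in edgeR, against 2 by DESeq2 and 5 at an unadjusted p under 0.05. Of 16 tested ATF4 targets 1 passed. Both counts stand beside 3.68% of all genes higher and 4.13% lower, so they say little about either list. The ATF4 target was PSAT1, of serine synthesis, at 541 and 492 CPM against 386 and 402 CPM (log2 fold change 0.39, adjusted p = 0.0221), and at 0.20 with the trend removed (adjusted p = 0.208). With NAC, 2 p53 targets were higher and 4 were lower, and 4 ATF4 targets were higher and 1 was lower, with medians of 0.02 in both lists, where 23.8% of all genes were higher and 20.8% were lower. Without the first NAC library, 3 p53 targets were higher and 5 were lower, and 2 ATF4 targets were higher and 2 were lower. Between the NAC libraries, 16 of 20 p53 targets were higher in the first (median difference 0.25), as were 10 of 16 ATF4 targets (0.07). VLDLR, also listed under ATF4, was at 43.2 CPM in the first and 12.2 CPM in the second NAC library, against 11.2 and 11.5 CPM in untreated KO cells.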

How the data were processed

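RNA-sequencing libraries of WA26 hESCs were analysed from raw counts per gene. The authors used trim-galore for the reads, hisat2 for alignment to hg38 and featureCounts at default settings for counting, and the deposited counts were not normalized. The submitters' processing notes also name FastQC 0.11.9. Which annotation was counted is not given in the sources used here. At its defaults, featureCounts ignores strand and drops reads with several matches or over several genes, which bears on RHEB and TSC2.

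After a filter on low counts (filterByExpr of edgeR 4.0.16 in R 4.3.3, minimum count 10) and TMM scaling, all 8 libraries in 4 groups were fitted together. P-values come from the edgeR quasi-likelihood test, with Benjamini-Hochberg adjustment over 15916 genes and a call at an adjusted p under 0.05. SEs were taken as the size of the log2 fold change over the square root of F. In an alternative fit, a smooth dependence of each library on the length and GC content of transcripts was removed, both known for 93.2% of tested genes (mgcv 1.9.3, GENCODE 44). Log2 CPM used a prior count of 2. Other alternatives were DESeq2 1.42.0, other normalizations and filters, a replicate block, a fit of only the libraries compared and leaving out each library. No pair of libraries agreed within sampling noise (chi-square per degree of freedom 9.32 to 30.5).

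Named genes are the members, UBQLN1, up to 2 genes of each list in each direction and comparison with the largest change among called genes with at least 1 log2 CPM and groups that did not overlap, the 5 genes most like DDIT4, and markers high in a library that stood apart. The rule allows more genes than are named. The result of the other pathway genes in KO against WT is not reported here. The members and lists were chosen with earlier results of these data known. In simulated counts with 200 changed genes for NAC against untreated KO cells, 191 were recovered and 2 unchanged genes were called among 15628 genes. When a GC trend was added to these counts, 5508 unchanged genes were called, and 11 after its removal, with 195 of the 200 recovered. That trend was put in by design as a straight line on GC content alone, so a smooth curve on GC content was bound to remove it. Both simulated NAC libraries had the same expected levels, unlike the real pair. The changed genes were given larger changes than the members other than DDIT4 showed with NAC. Where the trend in the real libraries came from was not tested. Library totals were 31236968 to 41639350 counts, with 2 libraries per group.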

Additional observations from a re-analysis of the deposited data

How the results depend on the processing

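With 2 libraries per group, the number of members called moved with the setting. DDIT4 is counted only in KO against WT, so the other counts, also those by the study's criteria, are of 9 members. In KO against WT, where no member was called, DESeq2 called 1, no filter on low counts 2 and the fit of only the libraries compared 4. DDIT4 is among those called without the filter and with only the libraries compared, and its small p-values only describe it. Leaving out either NAC library raised the number of members called, DDIT4 among them, and also that of all genes called. Leaving out any other library did not raise either number. At 5% O2, where 1 was called, upper quartile normalization called 2, DESeq2, no filter, at least 10 counts in every library and the replicate block each called 3, and only the libraries compared called 4. With the trend removed, with or without the block, and by the study's criteria 0 were called. Leaving out either NAC library again raised the number of members called and that of all genes called, and leaving out any of the libraries compared lowered both. With NAC against untreated, where 6 were called, 3 were called with the trend removed without the first NAC library and 0 by the study's criteria. Against 5% O2, where 5 were called, the same settings gave 3 and 0, and leaving out single libraries gave 1 to 6, with 1 when the second library at 5% O2 was left out. The trend removed without the first NAC library was chosen after seeing the data. Calls over all genes moved too, with 832 by DESeq2, 1252 without the filter and 1124 with only the libraries compared in KO against WT. At 5% O2 these were 2110, 2220 and 3009. Upper quartile normalization called 1275 genes there, at least 10 counts in every library 1391 and the replicate block 1417. With the trend removed 343 were called, and 250 with the block as well.

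Log2 fold changes changed sign as follows, and the cause was not tested. With the trend removed, with it and the replicate block, and with it and without the first NAC library, TSC1 in KO against WT was at -0.02 in each, DDIT4L at 5% O2 at -0.14 in each and AKT1S1 at 5% O2 at 0.05 in each. In the same order, TSC1 with NAC was at 0.22, 0.21 and 0.07, and SESN1 with NAC against 5% O2 at -0.04, -0.05 and -0.21. SESN2 with NAC was at 0.45 and 0.43 in the first pair of these. With the trend removed without the first NAC library, TSC2 was at 0.04 with NAC and at 0.09 against 5% O2, and SESN2 against 5% O2 at -0.04. Leaving out single libraries, DDIT4L at 5% O2 ran from -0.02 to 0.10, SESN3 from -0.28 to 0.03, AKT1S1 from -0.21 to 0.02 and SESN2 with NAC from -0.55 to 0.34, where both ends passed the test. Against 5% O2, SESN1 ran from -0.09 to 0.26 and SESN2 from -0.28 to 0.61.

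Of 719 values of members under 18 other settings, 608 kept their sign and side of the threshold or moved by less than the spread, 28 lost the call, 48 gained it, 28 changed sign and 7 values of DDIT4 moved by more than the spread. Libraries with the same number did not deviate together (correlations from -0.02 to 0.08), so the replicate block is only an alternative, and it moved the number of genes called to 1417 at 5% O2. Over all genes, 213 higher and 99 lower genes in KO against WT became 64 to 1311 genes in total over the settings, 586 and 657 at 5% O2 became 36 to 3009, 3785 and 3315 with NAC became 3804 to 7591, and 2469 and 2166 against 5% O2 became 1354 to 5468. Planned comparisons in treated WT cells were not run. DEPTOR, with 39 to 138 counts a library, is the member whose depth limits it most.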
